A study of Mus musculus with 6 samples.

Results

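The genes described are 10 that copy the genome or feed its copying: the 6 helicase subunits Mcm2, Mcm3, Mcm4, Mcm5, Mcm6 and Mcm7, the sliding clamp Pcna, and the enzymes Rrm1, Rrm2 and Tyms, which make DNA building blocks. They were chosen by name, and all 10 had a row among the 12331 gene rows of the deposited table. Each row was read in 6 RNA-seq libraries of E14tg2a, an established line of mouse embryonic stem cells grown in serum with the cytokine LIF, which keeps them undifferentiated. Per the labels' protocols, all libraries began with 10 pg of total RNA purified from the cells, about what 1 cell holds, though the sample descriptions call the material a lysate of single cells, so that differences between cells and between technical repeats cannot be told apart. The RNA was primed with oligo(dT) and amplified by 20 cycles of PCR. The cDNA of 3 libraries was then broken by sonication, and that of the other 3 was cut and tagged at once by hyperactive Tn5 transposase (tagmentation). The series set these ways of making a library against each other. Both groups carry the replicate numbers 1 to 3. By the protocols the replicates are technical, and the labels name no separate cultures, so the p-values reflect no more than how these libraries spread. The level of a transcript in such RNA depends on how many cells made it and on how much each made, and these cannot be told apart.

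Before a cell divides, the MCM complex is loaded onto origins of replication as a ring of 6 related proteins, and in S phase it unwinds the helix ahead of the polymerases. PCNA is a ring that slides along DNA and holds polymerases and repair enzymes to it. Ribonucleotide reductase, built from the large subunit Rrm1 and the small subunit Rrm2, turns ribonucleotides into deoxyribonucleotides, and thymidylate synthase (Tyms) makes the thymidine nucleotide. Mouse embryonic stem cells have a short first gap phase and spend much of the cycle in S phase, and genes of this group are classical targets of the E2F transcription factors, which bind sites such as TTTGGCGC near the start of a gene.

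To show what such sites look like in these genes, promoters from 250 bases before to 50 bases after the start site were searched in RefSeq sequence (GRCm38.p6) for TTTGGCGC, TTTCGCGC, TTTCCCGC and TTTGCCGC on both strands. By symbol 9 of the 10 genes were matched, and Mcm4 was not. A match was found in 4 genes, all of them helicase subunits, at 9 places, some of which overlap on opposite strands. The lines show 30 bases along the gene's strand with 1 match in capitals. Position is that of the first base in capitals, counted from the start site.
Mcm3, position 39, chr1:20820263-20820292, minus strand: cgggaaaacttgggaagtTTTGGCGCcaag
Mcm3, position 20, chr1:20820275-20820304, minus strand: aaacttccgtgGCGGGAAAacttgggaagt
Mcm5, position -153, chr8:75109345-75109374, plus strand: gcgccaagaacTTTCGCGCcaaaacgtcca
Mcm6, position -110, chr1:128359797-128359826, minus strand: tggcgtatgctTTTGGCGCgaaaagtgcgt
Mcm6, position -47, chr1:128359734-128359763, minus strand: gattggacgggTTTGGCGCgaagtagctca
Mcm7, position 17, chr5:138171849-138171878, minus strand: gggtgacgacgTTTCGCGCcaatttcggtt
Mcm7, position -165, chr5:138172030-138172059, minus strand: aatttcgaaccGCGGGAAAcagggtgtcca
Of all 32851 promoters of 300 bases in the same table, 2.26% held at least 1 of these motifs. Counted by gene, it was 2.60% of 27025 genes. Among the other genes of replication and nucleotide synthesis listed below, 64 were matched there and 16 held a motif. A match describes the letters only, and where none was found, these letters are not in that window.

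The libraries had 18852822 to 34681566 alignments. Of 8 embryonic stem cell markers 7 were at 1 RPKM or more in all libraries, with Pou5f1 at 91.5 to 260 RPKM (reads divided by gene length and by library size) and Zfp42 at 164 to 444 RPKM over the 6 libraries. The exception was Nanog, listed at 0 in both libraries of number 3 and at 3.85 to 8.39 RPKM in the others, and Sox2 was as low as 3.79 RPKM in tagmentation library 2. Of 7 fibroblast markers 4 were in the table, and their summed level was 0.402 to 12.1 RPKM with sonication and 0.126 to 9.55 RPKM with tagmentation. It was highest in number 1, where all of it was Thy1, and 3 of the 4 were under 1 RPKM throughout. Of 6 endoderm markers only Dab2 was in the table, also highest in number 1, at 5.54 and 9.29 RPKM, and listed at 0 in 3 libraries. Of 4 neural markers 1 was in the table, under 1 RPKM throughout. Whether this has a part in the differences between numbers below was not tested. Reads per gene could be recovered for 9 of the 10 genes, because their RPKM values are whole multiples of 1 read at 1 gene length. Of these 9, which leave out Tyms, all but Mcm4 rested on 1154 to 20152 reads per library, and Mcm4 on 202 to 3659. Counting error alone (95% exact Poisson interval) was therefore at most 5.94% of a value for the others of these 9 and 14.8% for Mcm4. PCR copies are not independent molecules, so this covers counting error only.

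The helicase subunits were all transcribed, and 2 of them, Mcm2 and Mcm7, varied little over the 6 libraries, while Mcm4 was under 10 RPKM in 4 of them. Mcm2, the subunit that also binds histones, had 121, 85.9 and 87.0 RPKM in the sonicated libraries 1 to 3 and 97.0, 96.0 and 121 RPKM in the tagmented libraries 1 to 3. The groups overlapped in part, with sonication libraries 2 and 3 below all tagmentation libraries, and the highest library was 1.41 times the lowest. Mcm7, the subunit that is marked for removal when forks meet, had 89.0, 58.1 and 62.6 RPKM with sonication. It had 58.8, 62.9 and 79.8 RPKM with tagmentation. These also overlapped, and number 1 was highest after sonication but lowest after tagmentation.

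Mcm4, a subunit of the motor core together with Mcm6 and Mcm7, had 33.7, 3.66 and 8.72 RPKM in the sonicated libraries 1 to 3. It had 45.0, 2.32 and 1.62 RPKM in the tagmented libraries 1 to 3. Number 1 was high in both methods and the other numbers were low in both. The fold from lowest to highest was 9.19 within sonication and 27.7 within tagmentation. In number 1 the value rested on 3659 and 3395 reads, in number 2 on 289 and 288, and in number 3 on 590 and 202. In number 3 the methods stood apart beyond counting error, with 95% intervals of 8.03 to 9.45 RPKM with sonication and 1.41 to 1.86 RPKM with tagmentation.

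Mcm3 and Mcm5, neighbours in the ring, were highest in number 2 with both methods. Mcm3 had 60.2, 162 and 50.7 RPKM with sonication and 50.0, 192 and 75.0 RPKM with tagmentation. Mcm5, which forms the gate of the ring with Mcm2, had 115, 187 and 87.1 RPKM with sonication. It had 70.0, 170.1 and 92.5 RPKM with tagmentation. Mcm6, which binds the loading factor Cdt1, had 78.7, 88.3 and 21.1 RPKM with sonication and 71.2, 112 and 32.8 RPKM with tagmentation. It was the 1 subunit with its lowest level in number 3 under both methods, 21.1 and 32.8 RPKM, and the 1 subunit whose 3 numbers stood in the same order in both.

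**Figure D1:**
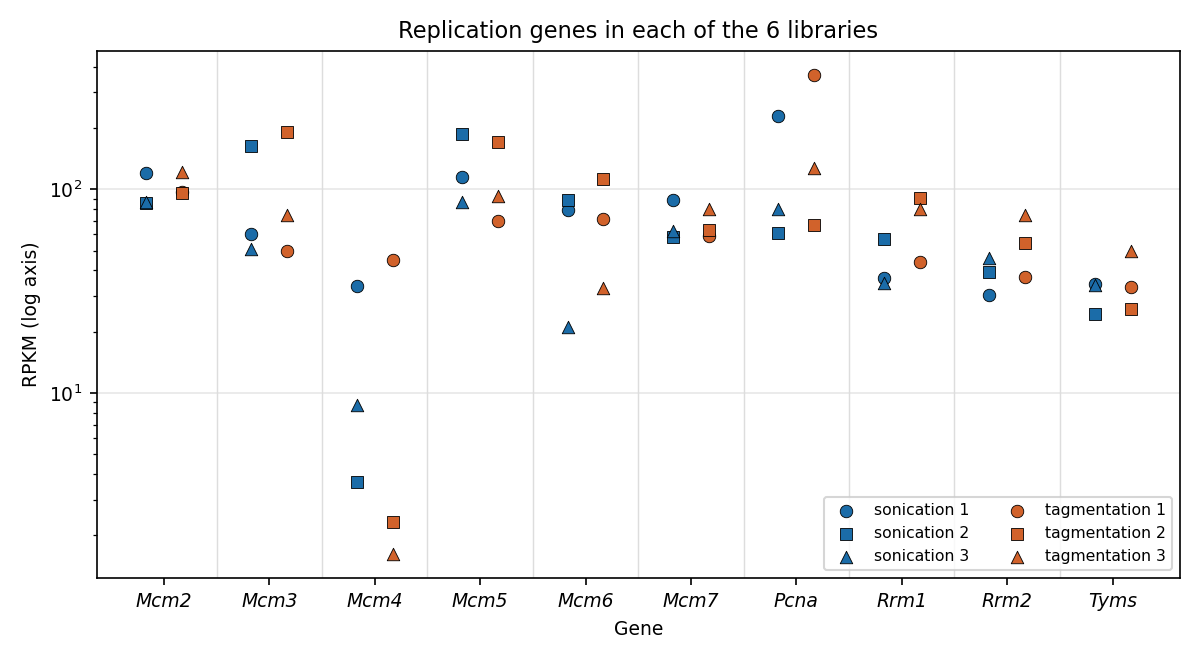
RPKM (log axis) of the 10 genes in each library, with colour for the method and marker shape for the replicate number, 1 point per library. Mcm4 lies between 1.62 and 8.72 RPKM in numbers 2 and 3 and at 33.7 and 45.0 RPKM in number 1, while Mcm2 stays between 85.9 and 121 RPKM.

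Because the ring holds 1 copy of each subunit, the transcripts were also set against their sum. The summed level of the 6 subunits was 467 ± 137 RPKM with sonication and 477 ± 137 RPKM with tagmentation (SD, n = 3). Mcm4 made up 6.77% of the sum in sonication library 1 and 11.5% in tagmentation library 1. It made up 0.625% and 0.365% in number 2, and 2.75% and 0.403% in number 3. It was the lowest subunit in each of the 6 libraries. The ratio of the highest to the lowest subunit was 3.58 and 2.15 in number 1, 51.2 and 82.6 in number 2, and 9.98 and 74.8 in number 3, sonication first. With Mcm4 left out, this ratio was 1.94 to 4.13. The shares of Mcm2, Mcm3 and Mcm6 were higher with tagmentation at each number. These are shares of the same sum, so a lower share of a subunit raises those of the others. Mcm2 had 24.3% and 24.7% of the sum in number 1, 14.7% and 15.1% in number 2, and 27.4% and 30.1% in number 3. Mcm3 had 27.7% and 30.2% of the sum in number 2, against 12.1% and 12.7% in number 1. Mcm6 had 6.65% and 8.14% in number 3, against 15.8% and 18.2% in number 1. The share of Mcm5 went the other way and was lower with tagmentation each time. It was 23.1% and 17.9% in number 1, 32.0% and 26.8% in number 2, and 27.4% and 22.9% in number 3.

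**Figure D2:**
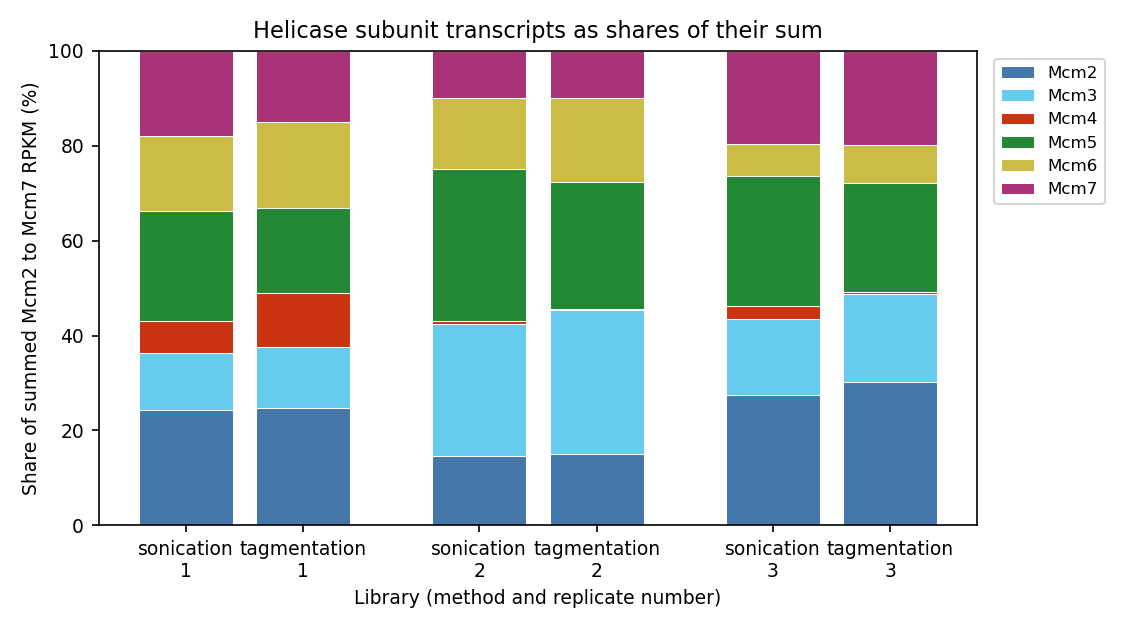
Share of each helicase subunit in the summed RPKM of Mcm2 to Mcm7 (bars, 0 to 100%), for the 6 libraries side by side by replicate number. The share of Mcm4 is 6.77% and 11.5% in number 1 and between 0.365% and 2.75% in the other libraries, and that of Mcm3 is 27.7% and 30.2% in number 2.

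Pcna had the highest mean level of the 10 genes, with 228, 61.0 and 80.0 RPKM in the sonicated libraries 1 to 3 and 365, 66.8 and 127 RPKM in the tagmented libraries 1 to 3. It stood highest in number 1, lowest in number 2 and between them in number 3, with both methods. It was higher after tagmentation in 3 of 3 pairs, by 1.60, 1.10 and 1.58 times, but the groups overlapped. Relative to the mean of the helicase subunits in the same library, Pcna was 2.75 and 5.58 times as high in number 1, and 0.625 and 0.631 times in number 2. RefSeq lists Pcna-ps1 and Pcna-ps2, and reads of such copies could have been counted for Pcna.

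Transcripts for nucleotide synthesis varied less between numbers than 4 of the 6 helicase subunits on the authors' scaling. With median-ratio scaling the ranges of Rrm2 (1.26 log2 units) and Tyms (1.17) were wider than that of Mcm5 (0.97), as they were with quantile normalization (0.95 and 0.99 against 0.87). The pair for ribonucleotide reductase was higher after tagmentation at each number, without passing the test between methods. Rrm1 had 36.5, 57.2 and 34.7 RPKM with sonication and 44.1, 90.8 and 80.1 RPKM with tagmentation. The tagmentation libraries of numbers 2 and 3 were above all sonication libraries, and that of number 1 was not. Rrm2, the subunit that limits the enzyme over the cell cycle, had 30.4, 39.3 and 45.9 RPKM with sonication and 37.2, 54.5 and 74.9 RPKM with tagmentation. Its numbers stood in the same order in both methods, lowest in number 1 and highest in number 3. The ratio of Rrm1 to Rrm2 was 1.14 ± 0.354 after sonication and 1.31 ± 0.316 after tagmentation (SD, n = 3), and lowest in number 3 for both methods.

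Tyms had 34.1, 24.3 and 34.0 RPKM with sonication and 33.1, 26.0 and 49.8 RPKM with tagmentation. It was the lowest of the 10 genes by mean after Mcm4, and number 2 was lowest in both groups. No single gene length gave whole reads for Tyms, so its reads are not given. The table also holds a row for the pseudogene Tyms-ps, with 31.8, 18.7 and 23.9 RPKM with sonication and 37.0, 27.7 and 54.3 RPKM with tagmentation. Reads may have been shared between these rows, and the Tyms values are uncertain to that extent.

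Between methods, none of the 10 genes passed the test. Values were tested as log2(RPKM + 1), with limma across the 6327 genes that had 1 RPKM or more in at least 3 libraries, all 10 among them, and with Benjamini-Hochberg adjustment. Log2 fold changes are tagmentation over sonication on this scale. Limma called 0 of the 10 genes and 0.00% of all genes tested. At an unadjusted p under 0.05 it found 0 of the 10 and 18 of all. This fit counts the spread between replicate numbers as error and could call little, so the lack of calls does not show like levels. The widest positive value was that of Rrm1, 0.70 (SE 0.56, adjusted p 1.00), with means of 42.8 ± 12.5 and 71.7 ± 24.5 RPKM (SD, n = 3). Its 95% interval ran from -0.54 to 1.95, which spans both directions and does not show that the methods gave equal levels. Pcna had 0.49 (SE 0.70), from means of 123 ± 91.5 and 186 ± 158 RPKM, and Rrm2 had 0.48 (SE 0.57), from 38.5 ± 7.77 and 55.6 ± 18.9 RPKM.

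Smaller positive values belonged to Mcm6 (0.27, SE 0.71), Tyms (0.20, SE 0.63), Mcm3 (0.18, SE 0.65) and Mcm2 (0.11, SE 0.43). Mcm7 had -0.044 (SE 0.49), Mcm5 had -0.25 (SE 0.51) and Mcm4 had -0.66 (SE 1.44, 95% interval -3.87 to 2.56). The median of the 10 was 0.19, against 0.028 for all genes tested. It was 0.068 for the 2648 tested genes whose mean lay within the range of these genes' means. These directions are not firm: quantile normalization moved the median of the 10 to -0.0025, and Mcm2 and Tyms turned below 0 with it. In no gene of the 10 did the libraries of the methods separate fully, as they did in 2.40% of all genes tested.

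The libraries of the same number resembled each other across all genes, so the fit was also made with the number as a block. Limma then called 3.29% of all genes tested and again 0 of the 10. Rrm1 (adjusted p 0.192) and Mcm4 (adjusted p 0.223) came nearest. At an unadjusted p under 0.05 the blocked fit found 1061 of all and 2 of the 10, Rrm1 (p 0.0191) and Mcm4 (p 0.0266). These p-values rest on a spread taken almost wholly from all genes. Without number 1, the blocked fit called 16.6% of all genes tested and 2 of the 10, Rrm1 higher (0.92, adjusted p 0.0165) and Mcm4 lower (-1.19, adjusted p 0.0378).

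Rrm1, Rrm2 and Pcna were higher after tagmentation in 3 of 3 pairs, and none was lower in all. Among all genes tested, 19.6% were higher and 14.2% lower in all pairs. Number 3 gave the highest difference in 8 of the 10 genes and in 62.6% of all genes tested. There 9 of the 10 were above 0, all but Mcm4 (-1.89), with a median of 0.55, against 65.4% above 0 and a median of 0.20 for all genes. The median in number 3 was 0.33 for the 2648 tested genes whose mean lay within the range of these genes' means. In number 1, 4 of the 10 were above 0, close to the 38.6% of all genes tested. These were Mcm4 (0.41), Pcna (0.68), Rrm1 (0.27) and Rrm2 (0.28). In number 2, 8 of the 10 were above 0, against 58.7% of all genes tested.

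**Figure D3:**
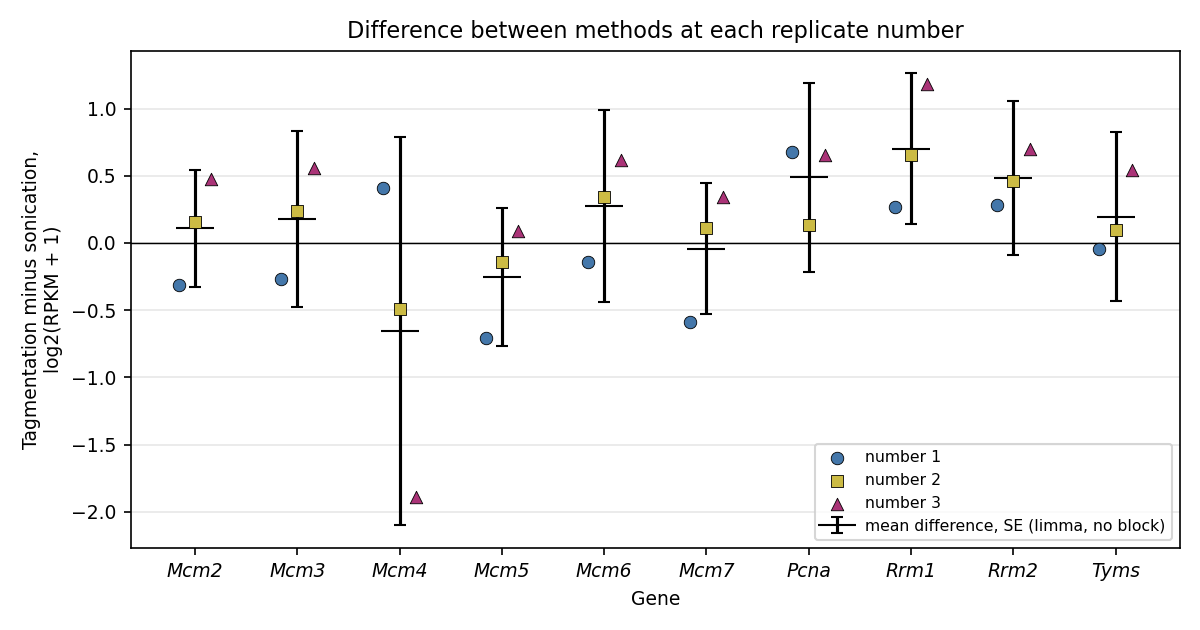
Difference between methods, tagmentation minus sonication in log2(RPKM + 1), for each gene at each replicate number (points), with the mean difference and its SE from limma without the block (bars). Pcna, Rrm1 and Rrm2 lie above 0 at all 3 numbers, and Mcm4 runs from 0.41 in number 1 to -1.89 in number 3.

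Between replicate numbers, 5 of the 10 genes differed, in an F test by limma on the number with the method as a term. They were Mcm4, with 3.34 log2 units from the lowest to the highest number (adjusted p 1.62e-18), Pcna with 2.16 (8.06e-08), Mcm6 with 1.88 (1.62e-06), Mcm3 with 1.67 (1.02e-05) and Mcm5 with 0.99 (0.0108). Like the blocked fit, this test took the spread almost wholly from all genes (210 prior degrees of freedom). Its p-values hardly reflect how each gene's own libraries varied. The labels do not say whether the libraries of a number came from the same cDNA. If they did, each number is a single amplification, and these p-values do not measure repeated differences between numbers. The adjusted p of Mcm4 was 0.00444 with median-ratio scaling and 0.00247 with quantile normalization, and that of Pcna 0.000507 and 0.000286. The same test called 88.1% of all genes tested, and 86.4% of the 2648 whose mean lay within the range of these genes' means. The 5 others were Rrm1 (0.83, adjusted p 0.0849), Rrm2 (0.78, 0.107), Tyms (0.69, 0.172), Mcm7 (0.26, 0.761) and Mcm2 (0.25, 0.792). Only 1.44% of all genes tested had a smaller range than Mcm2, and 1.49% a smaller one than Mcm7. The median range of the 10 was 0.91, against 2.38 for all genes tested and 2.14 for those at a like mean level.

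This count rests on the authors' scaling and on single libraries. With median-ratio scaling, whose log2 factors ran from -0.31 to 0.35 and were below 0 for the libraries of number 3 and above 0 for the others, all 10 genes were called, at 90.9% of all genes. The ranges of Mcm2 and Mcm7 were then 0.67 and 0.71. With quantile normalization all 10 were also called, at 91.7% of all genes, with 0.41 for Mcm2 and 0.43 for Mcm7. The count was 8 without sonication library 1, and 3 without sonication library 2, without tagmentation library 2 or without both of them. Under both scalings Mcm2 still had the smallest range of the 10, and Mcm4 the widest (3.28 and 3.41).

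The number that stood highest by the mean of both methods was not shared among the genes. It was number 1 for Mcm2, Mcm4, Mcm7 and Pcna, number 2 for Mcm3, Mcm5, Mcm6 and Rrm1, and number 3 for Rrm2 and Tyms. With sonication alone Mcm2, Mcm7 and Tyms stood highest in number 1, and with tagmentation alone in number 3. Of the genes listed, Mcm2, Mcm7, Rrm1, Rrm2 and Tyms did not pass the test between numbers on the authors' scaling. The 3 numbers had the same order in both methods in 3 of the 10 genes, Mcm6, Pcna and Rrm2, against 72.6% of all genes tested. In Mcm4, the order of numbers 2 and 3 changed between methods, both being low.

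**Figure D4:**
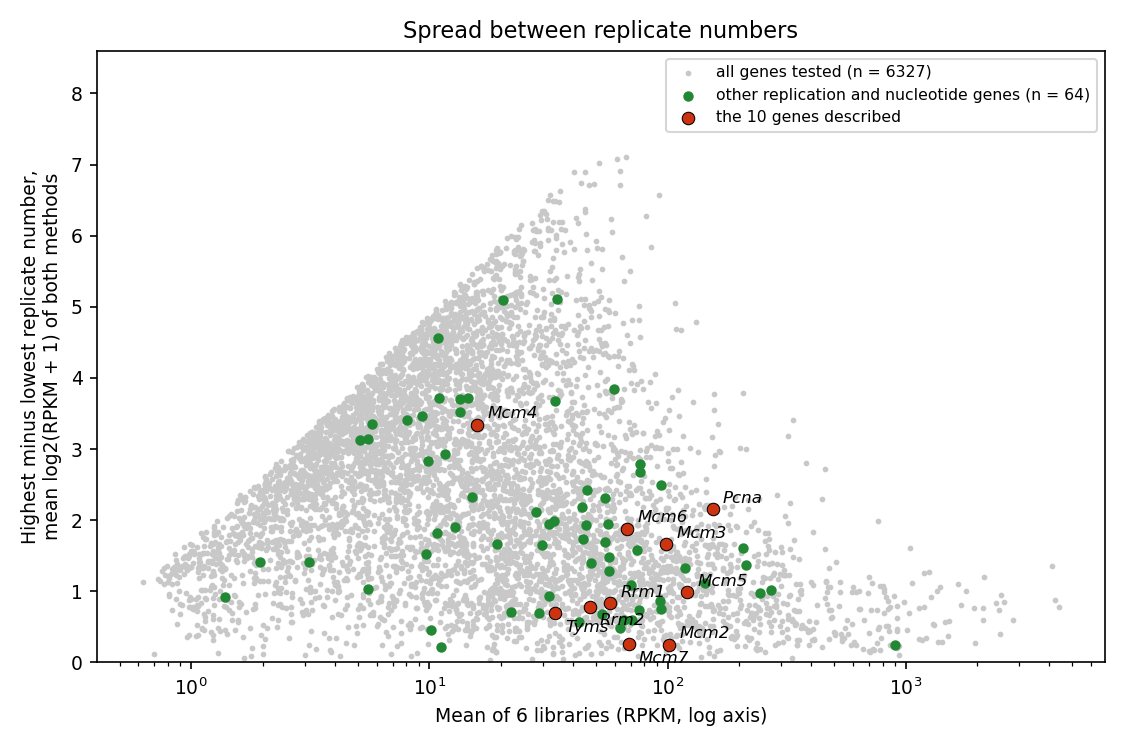
Spread between replicate numbers (highest minus lowest number, as the mean of both methods in log2(RPKM + 1)) against the mean RPKM of the 6 libraries (log axis), 1 point per gene. Mcm2 and Mcm7 lie at 0.25 and 0.26, near the lower edge of the 6327 genes tested, and Mcm4 lies at 3.34.

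For each gene, the most alike profile was looked up as the highest Pearson r of log2(RPKM + 1) over the 6 libraries. With 3 pairs of like libraries such values are high for many genes and are a description only: 6.21% of all other tested genes had r over 0.95 with Mcm4, and 0.0632% with Mcm2. Among replication genes, Mcm2 and Mcm7 were each other's nearest (r 0.918). Mcm6 was nearest to Prim2, the large primase subunit (0.984), Mcm3 to Rpa2, of the single-strand binding complex (0.979), and Mcm5 to Pola2, of polymerase alpha (0.973). Pcna was nearest to Timeless, of the fork protection complex (0.949), Mcm4 to Rnaseh2b, an RNase H2 subunit (0.928), and Rrm1 to Dbf4, the activator of the Cdc7 kinase (0.918). Rrm2 was nearest to Orc6 (0.946) and Tyms to Orc1 (0.900), both of the origin recognition complex. Over the whole table the nearest genes were Efhd2 for Mcm2, Xrcc6 for Mcm3, Chic2 for Mcm4, B3gat3 for Mcm5, Gabarap for Mcm6, Fscn1 for Mcm7, Ywhaq for Pcna, Uba2 for Rrm1, Wdr43 for Rrm2 and Bcat1 for Tyms, with r of 0.970 to 0.999.

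The wider machinery of replication and nucleotide synthesis was read from a list of 78 other genes, of which 77 were in the table and 64 were tested. Limma without the block called 0 of the 64 between methods (0 also at an unadjusted p under 0.05), and their median log2 fold change was 0.064. With the block 1 was called, Topbp1, a scaffold that helps to switch the helicase on. It had 18.5, 4.92 and 13.8 RPKM with sonication and 30.0, 9.08 and 38.5 RPKM with tagmentation, which was higher in 3 of 3 pairs (0.95, SE 0.29, adjusted p 0.0441). At 1 of 64 its share lay below the 3.29% of all genes. The GC correction ended this call, and with it limma called 0 of all 6265 genes that had a GC content, or 0.00%. An unadjusted p under 0.05 was still found for 1108 of all and 10 of the 64, against 1061 and 12 with the block alone. The prior degrees of freedom fell from 210 to 2.53, which makes a call hard to reach. The lost calls therefore do not show smaller differences. Without number 1 the blocked fit called 12 of the 64, 10 higher and 2 lower, at 16.6% of all genes. In this list 51 of the 64 (79.7%) differed between numbers, against 88.1% of all genes tested, with a median range of 1.68 log2 units against 2.38. The count was 28 without tagmentation library 2 and 30 without number 2.

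Of the genes of origin licensing 8 of 8 tested differed between numbers, and of those of helicase activation 5 of 9, at 88.1% of all genes tested; the difference between these groups was not tested. Cdt1, which brings the MCM ring to origins, had 89.9, 149 and 22.1 RPKM with sonication and 53.7, 125 and 19.3 RPKM with tagmentation. It was lowest in number 3 with both methods. Orc6 was highest in number 3, with 71.7 and 139 RPKM. Dbf4 had 52.0, 73.3 and 34.8 RPKM with sonication and 75.1, 127 and 94.6 RPKM with tagmentation. These groups did not overlap, and the difference was not called with the block (0.91, SE 0.30, adjusted p 0.0626). Gins1, a subunit of the GINS part of the active helicase, had 58.8 ± 16.5 and 83.3 ± 16.4 RPKM (SD, n = 3), also without overlap and not called.

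Of the 10 tested polymerase and primase genes 10 differed between numbers, close to the 88.1% of all genes tested. Pole3 had 124 ± 54.5 RPKM with sonication and 112 ± 52.5 RPKM with tagmentation, and Pole4 had 46.1 ± 22.5 and 67.4 ± 34.3 RPKM (SD, n = 3), both small subunits of polymerase epsilon. The clamp loader genes Rfc2 (range 0.74, adjusted p 0.12) and Rfc5 (0.60, adjusted p 0.273), which serve the Pcna ring, were not called between numbers. Of the genes for clamp loading and RPA, 7 of 9 were. Of lagging strand genes 4 of 6 were called, among them Rnaseh2c (2.49, adjusted p 6.49e-11) but not Lig1, the ligase that seals nicks (0.48, adjusted p 0.419). At the fork, Chaf1b, a histone chaperone subunit, had 68.6 ± 27.6 and 71.6 ± 27.0 RPKM, and Tipin, the partner of Timeless, 48.5 ± 29.3 and 61.0 ± 43.4 RPKM (SD, n = 3).

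Of 17 other tested genes of nucleotide synthesis, 13 (76.5%) differed between numbers, against 88.1% of all genes tested, and none was called between methods in either fit. Nme2, a nucleoside diphosphate kinase, had the highest level of the list, 886 ± 154 RPKM with sonication and 909 ± 119 RPKM with tagmentation (SD, n = 3), and a range between numbers of 0.24. Dtymk, which acts after Tyms, had 267 ± 102 and 276 ± 101 RPKM (SD, n = 3). For comparison, 18 of 21 tested genes of mitosis (85.7%) differed between numbers, close to the 88.1% of all genes. Their median range was 1.64, against 2.38 for all genes, and none was called between methods in either fit. Without number 1 the blocked fit called 5 of the 21, at 16.6% of all genes. The difference between these lists was not tested.

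The E2F factors themselves were read from a list of 13 E2F and Rb family genes, 12 of them in the table and 7 tested. None was called between methods in either fit, and 6 of the 7 (85.7%) differed between numbers, close to the 88.1% of all genes tested. Their median range was 3.01, against 2.38 for all genes tested. The following were picked after their values were seen. E2f4, which binds such promoters mainly in quiescence and early in the cycle, had the highest level, 18.8 to 77.5 RPKM over the 6 libraries. E2f1, an activator of S phase genes, had 2.28 to 42.0 RPKM. Rb1, the retinoblastoma gene, stayed under 1 RPKM in all 6 libraries, with 0.711 RPKM as its highest value.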

How the data were processed

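The deposited RPKM values per gene symbol are the work of the authors, 1 column per library and none pooled, and the file headers also give each library's alignments. The submitters' processing notes name CASAVA 1.7.0, Partek and the build mm9 without roles; for the aligner, the annotation and multiply matching reads, the choice is not given in the sources used here. Genes were found by symbol, through RefSeq synonyms where needed. The genes, lists and tests were chosen with earlier results of these data known. limma 3.58.1 in R 4.3.3 (lmFit, eBayes with a trend, two-sided) was run on log2(RPKM + 1), a scale that understates changes of low genes. In a run on simulated data only the blocked fit had a pass mark, so that run does not vouch for the fit without the block. The threshold was an adjusted p of 0.05. Libraries of the same number deviated together from their group means (r 0.952, 0.969 and 0.934), so the numbers were taken as pairs. The labels do not say whether such libraries share a cDNA. With the block, and in the test between numbers on the authors' scaling, limma took the spread almost wholly from all genes (210 prior degrees of freedom). These SEs and p-values hardly reflect how a single gene varied. With the block and the GC correction there were 2.53 prior degrees of freedom. Gene lengths from 200 to 12000 bases were tried for whole reads, within 0.002 reads plus rounding; with the alignment totals moved by 1 library, 0 of the 10 genes gave a length. The named genes were the 10, list genes called in either fit, the 2 highest of each role, and the most alike profiles. Alternatives were the block, pseudocounts of 0.1 and 5, no filter or a mean of 10 RPKM, other scalings, no trend, a GC correction and leaving out libraries.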

Additional observations from a re-analysis of the deposited data

How the results depend on the processing

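Of 180 comparisons of the 10 log2 fold changes between methods with their values under 18 alternatives, 159 kept their direction and side of the threshold, 19 turned direction and 2 became called. The block, no filter, a mean of 10 RPKM and no trend leave the log2 fold change itself unchanged. In these only the call could move, so their kept directions say nothing on firmness. With quantile normalization Mcm2 turned to -0.043 and Tyms to -0.0096. Leaving out single libraries without the block gave -0.0012 to 0.27 for Mcm2, -0.37 to 0.69 for Mcm3, -1.98 to 0.13 for Mcm4, -0.61 to 0.047 for Mcm5, -0.37 to 0.75 for Mcm6, -0.17 to 0.14 for Mcm7, -0.17 to 1.05 for Pcna and -0.052 to 0.41 for Tyms. Leaving out single numbers with the replicate block gave -0.076 to 0.32 for Mcm2, -0.013 to 0.40 for Mcm3 and -0.24 to 0.23 for Mcm7. Rrm1 and Rrm2 kept their direction in each. The count of the 10 called between methods was 0 under every alternative except the replicate block without number 1 (range 0 to 2). With the replicate block it was 0 for the 10 and 1 for the 64 other replication genes, and 0 for both after the GC correction; leaving out libraries or numbers gave 0 to 12 for the 64. Between numbers, 10 of the 10 were called with median-ratio scaling and 10 with quantile normalization, 4 with no filter and 5 under the other alternatives that kept all libraries. Leaving out single libraries gave 3 to 8, and 28 to 58 for the 64, and leaving out numbers gave 3 to 5, and 30 to 45 for the 64. The cause of these changes was not tested. A library left out leaves its number with 1 library, which is then assumed to vary like the rest.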
